A study of Mus musculus with 6 samples.

Results

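Cholesterol is built from acetyl-CoA through mevalonate, isoprenoid diphosphates and squalene, and the enzymes of this route are switched on and off together by the sterol regulatory element-binding proteins (SREBPs). The 8 genes described here are 6 enzymes of that route, Hmgcs1, Idi1, Fdps, Fdft1, Sqle and Lss, and the genes of the SREBPs themselves, Srebf1 and Srebf2. They were taken by name, not by a cut on measured values, from the 54532 genes of the expression table, and all 8 were found in it. RNA was sequenced from the hearts of 6 mice in which both Mrps5 alleles, the gene of a protein of the small mitochondrial ribosome subunit, were flanked by loxP sites. The 3 control mice (Mrps5 fl/fl, written Ctrl) carried no Cre. The 3 knockout mice (Mrps5 fl/fl; MCM, written cKO) also carried MCM, the tamoxifen-inducible Cre MerCreMer, which the αMHC promoter directs to cardiomyocytes, so other heart cells were not targeted. Both groups received tamoxifen at 45 mg/kg per day for 5 days from 8 weeks of age, and hearts were taken 12 weeks after it. Since no Ctrl mouse carried MCM, the presence of Cre and the loss of Mrps5 cannot be told apart. The tissue was ventricle according to the methods of the study.

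Values are given in FPKM, fragments scaled to gene length and library size. The gene length used exceeds the longest coding transcript by unlike amounts. It was 10787 bases against 4667 for Lss, 5546 against 2758 for Sqle and 4208 against 1382 for Fdps, but 4227 against 3698 for Fdft1. The order of levels, the ratios between genes and the filter on FPKM depend on these lengths, so levels of different genes compare only roughly. Each FPKM multiplied by gene length and by 1 scale per heart, inferred from the table, returned whole reads, 15989322 to 24875499 per heart. Mrps5 stood at 5.20, 6.45 and 6.33 FPKM in the Ctrl hearts and at 1.12, 1.23 and 1.31 in the cKO hearts. Summed cardiomyocyte markers (10 of 10 present, among them Myh6 and Tnnt2) ranged from 20565 to 25318 FPKM in Ctrl and from 11751 to 18808 in cKO. Within that list Actc1 (3846 to 6014 FPKM in Ctrl, 2904 to 6542 in cKO) overlapped between the groups. Actn2 (533 to 593, then 466 to 603) and Ttn (31.4 to 38.6, then 26.2 to 35.8) also overlapped. The other cardiomyocyte markers were lower in every cKO heart than in any Ctrl heart. Endothelial markers (6 of 6) ranged from 116 to 138 FPKM in Ctrl and from 77.2 to 90.9 in cKO, and fibroblast markers (6 of 6) from 145 to 168 and from 132 to 143. In the endothelial list Kdr overlapped (11.5 to 14.5 FPKM in Ctrl, 5.75 to 15.1 in cKO), and the others were lower in every cKO heart. Within the fibroblast list Dcn was lower in every cKO heart than in any Ctrl heart (98.2 to 112 FPKM in Ctrl, 55.1 to 77.6 in cKO), whereas Col1a1 (12.4 to 17.7, then 20.3 to 34.1) and Postn (2.98 to 3.65, then 5.68 to 8.01) were higher in every cKO heart. Summed leukocyte, red blood cell, adipocyte and atrial markers overlapped between the groups. Within the leukocyte list Csf1r and Cd163 were lower in every cKO heart than in any Ctrl heart. Csf1r was at least 10.4 FPKM in Ctrl and at most 8.54 in cKO, and Cd163 at least 7.41 and at most 6.70. The other leukocyte markers overlapped. Schwann cell markers were near 0, between 0.697 and 1.55 FPKM, with Pmp2 at 0. Adipocyte markers were highest in Ctrl 1 (50.4 FPKM) and cKO 3 (45.6), and these hearts were also the highest in atrial markers (2054 and 1675). Cidea made up 26.0 and 29.4 FPKM of these adipocyte sums. It was at 21.6 to 26.0 FPKM in Ctrl and 26.1 to 34.0 in cKO, highest in cKO 2. Adipoq, Plin1, Cidec, Cfd and Ucp1 were highest in Ctrl 1 and cKO 3, and Lep was at most 0.0313 FPKM. Nppa, which the study also used as a hypertrophy marker, made up 1127 of the 1348 FPKM of atrial markers in cKO 2. Another atrial marker, Myl7, was at 679 FPKM in Ctrl 1 and 495 in cKO 3, against 18.1 to 170 in the other hearts. The heart cKO 2 had 10.7 FPKM of Xist and 0 reads of 4 Y-linked genes, whereas Xist was at most 0.127 FPKM in the other hearts, all with Y-linked reads. The study states that its mice were all male, and the values of cKO 2 are not those of a male heart. The part of cell composition and sex in the results below was not tested, and in whole tissue fewer cells of a type and less RNA per cell cannot be told apart.

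In the pathway, the synthase encoded by Hmgcs1 condenses acetoacetyl-CoA with acetyl-CoA to HMG-CoA. Idi1 interconverts the isopentenyl and dimethylallyl diphosphates, and Fdps joins them into farnesyl diphosphate, from which ubiquinone, dolichol and prenyl anchors also derive. Fdft1 condenses farnesyl diphosphate to squalene, the first step committed to sterol, Sqle epoxidises squalene, and Lss closes the rings to lanosterol. SREBP-2, the product of Srebf2, acts mainly on cholesterol genes, and the shorter SREBP-1 form on fatty acid genes. Both proteins are made as membrane-bound precursors that SCAP escorts out of the endoplasmic reticulum and INSIG proteins retain there when sterol is plentiful. The levels below are of RNA, not of the processed proteins.

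Promoter sequence is shown for Hmgcs1, the classical sterol-responsive enzyme gene of the route, and for both SREBP genes, whose RNA levels differed in their response. Each run is the 250 bases before an annotated RefSeq start in GRCm38.p6, written 5′ to 3′ on the gene's strand. Capitals mark matches, on either strand, to the sterol regulatory element core TCACNCCAC, the CCAAT box CCAAT, the GC box GGGCGG or the E-box CACGTG. The windows lie at chr13:119690101-119690350 (plus strand) for Hmgcs1, chr11:60222582-60222831, chr11:60220628-60220877 and chr11:60210472-60210721 (minus strand) for the 3 starts of Srebf1, and chr15:82147019-82147268 (plus strand) for Srebf2.
Hmgcs1: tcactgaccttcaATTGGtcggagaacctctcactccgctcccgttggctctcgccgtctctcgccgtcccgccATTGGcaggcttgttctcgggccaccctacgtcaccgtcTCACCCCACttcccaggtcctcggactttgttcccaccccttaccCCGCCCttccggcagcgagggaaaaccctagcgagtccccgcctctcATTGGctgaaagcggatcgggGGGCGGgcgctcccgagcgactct
Srebf1, start 1: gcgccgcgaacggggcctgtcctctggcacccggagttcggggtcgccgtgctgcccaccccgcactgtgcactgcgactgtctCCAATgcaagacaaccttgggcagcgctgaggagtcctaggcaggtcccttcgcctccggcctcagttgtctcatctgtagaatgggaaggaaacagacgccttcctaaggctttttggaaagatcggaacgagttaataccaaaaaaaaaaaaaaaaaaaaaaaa
Srebf1, start 2: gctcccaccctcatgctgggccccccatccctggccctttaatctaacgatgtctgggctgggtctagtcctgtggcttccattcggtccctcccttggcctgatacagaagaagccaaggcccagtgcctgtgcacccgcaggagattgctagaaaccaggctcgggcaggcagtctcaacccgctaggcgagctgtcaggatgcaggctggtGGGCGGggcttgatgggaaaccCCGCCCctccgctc
Srebf1, start 3: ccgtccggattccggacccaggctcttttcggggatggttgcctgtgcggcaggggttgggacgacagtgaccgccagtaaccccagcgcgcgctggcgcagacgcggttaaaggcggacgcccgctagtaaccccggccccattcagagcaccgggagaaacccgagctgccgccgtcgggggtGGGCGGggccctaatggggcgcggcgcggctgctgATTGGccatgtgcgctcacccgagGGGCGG
Srebf2: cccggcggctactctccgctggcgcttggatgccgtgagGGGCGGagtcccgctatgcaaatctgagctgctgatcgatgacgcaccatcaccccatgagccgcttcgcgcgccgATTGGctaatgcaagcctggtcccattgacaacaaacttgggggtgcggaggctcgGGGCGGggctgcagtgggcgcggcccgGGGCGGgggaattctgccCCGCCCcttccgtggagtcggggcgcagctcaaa

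Windows were matched for 5 of the 8 genes, Hmgcs1, Idi1, Lss, Srebf1 and Srebf2, in 7 windows. The sterol regulatory element core occurred once, in Hmgcs1, beginning 137 bases before the start, against 1.05% of all 32851 promoter windows of this length. CCAAT occurred 3 times in Hmgcs1, 2 times in Idi1, once in Lss, once in Srebf2, and once each before starts 1 and 3 of Srebf1, against 33.8% of windows with any match. The GC box occurred 4 times in Srebf2, once in Idi1, 2 times each in Hmgcs1 and Lss, and 2 times each before starts 2 and 3 of Srebf1, against 32.7% of windows. The E-box, found in 6.02% of windows, was in none of the 7. No base belonged to more than one match, and a match is a description of letters, not a site of binding.

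In Ctrl hearts the 8 genes spanned a wide range of levels. Fdft1 and Srebf1 were highest, at 11.7 ± 0.289 and 10.9 ± 2.97 FPKM (mean ± SD, n = 3 here and throughout), and their ranges overlapped. Hmgcs1 (5.14 ± 0.220) and Srebf2 (4.22 ± 0.367) followed without overlap. Idi1 (0.761 ± 0.0917) was lower, and Lss (0.281 ± 0.0232) and Sqle (0.254 ± 0.0323) overlapped. Fdps was lowest, at 0.0272 ± 0.0151 FPKM. In cKO hearts the upper part of the order closed up. Hmgcs1, Fdft1 and Srebf1 then had overlapping neighbouring ranges at 5.48 ± 1.41, 5.37 ± 0.612 and 5.13 ± 0.161 FPKM. Srebf2 followed at 4.45 ± 0.391. Its range of 4.01 to 4.77 overlapped that of Hmgcs1 (4.23 to 7.01) and lay below those of Fdft1 and Srebf1. Sqle stood above Lss without overlap.

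**Figure D1:**
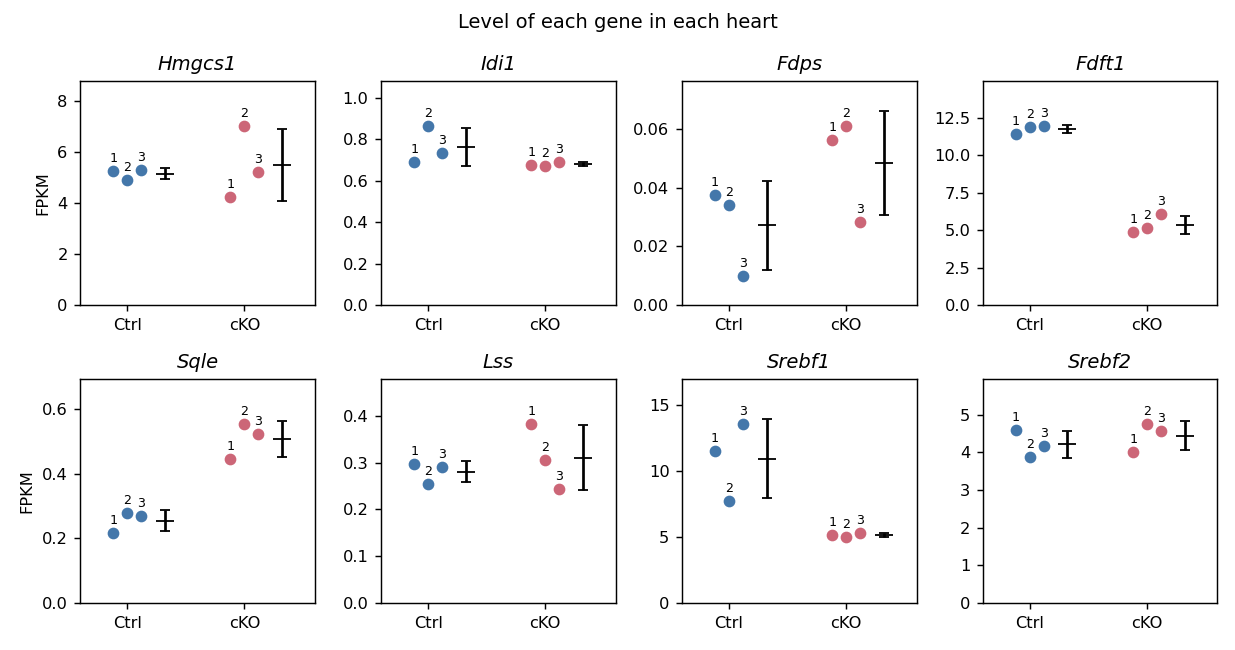
Level of each of the 8 genes in FPKM, 1 panel per gene with its own axis, with numbered points for single hearts and black bars for the mean and SD of 3 Ctrl and 3 cKO hearts. Fdft1 and Srebf1 lie lower in every cKO heart than in any Ctrl heart, Sqle lies higher in every cKO heart, and the other 5 genes overlap.

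In the knockout hearts the squalene synthase Fdft1 and the transcription factor gene Srebf1 fell, to 45.7% and 46.9% of their Ctrl levels. The comparison was made with limma on log2(FPKM + 1) over 12944 genes whose mean reached 0.5 FPKM, and a gene was called at a Benjamini-Hochberg adjusted p under 0.05. Of the 8 genes 5 passed that filter, 2 were called lower and 0 higher, beside 17.0% of all tested genes called lower and 16.3% called higher (33.3% in either direction). At an unadjusted p under 0.05 the count higher was also 0, and it was 0 by voom on the same genes. Sqle, at a mean under the filter, is treated separately below.

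Fdft1 makes squalene and thereby commits farnesyl diphosphate to sterol. Its levels in Ctrl 1 to 3 were 11.4, 11.9 and 12.0 FPKM (920, 1044 and 1222 reads). In cKO 1 to 3 they were 4.89, 5.15 and 6.06 FPKM (350, 508 and 644 reads). Every cKO heart lay below every Ctrl heart. The log2 fold change on the log2(FPKM + 1) scale was −1.01 (SE 0.0865, 95% interval −1.21 to −0.80, adjusted p = 0.000901 by limma). The call held in all 23 alternatives, with adjusted p from 0.000187 to 0.0107. The gene (ENSMUSG00000021273) lies on the minus strand at chr14:63145150-63179578 in GRCm38. Over 54.7% of its longest coding transcript it had a near-identical stretch (at least 95% identity over at least 100 bases) in another annotated gene. One partner was the cathepsin gene Ctsb, which overlaps it on the opposite strand over 774 bases and stood at 95.9, 97.2 and 103 FPKM in Ctrl and 87.1, 89.8 and 80.8 in cKO. The other was the pseudogene Gm6781, with 4 reads in all hearts together. Whether counting used strand was not given in the sources used here, so reads from the stretch shared with Ctsb cannot be told apart.

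Srebf1 encodes the SREBP-1 proteins. It stood at 11.5, 7.71 and 13.6 FPKM in Ctrl 1 to 3 (1233, 903 and 1850 reads) and at 5.13, 4.96 and 5.28 FPKM in cKO 1 to 3 (489, 653 and 749 reads). The Ctrl hearts were spread and the cKO hearts were close together, with no overlap. The log2 fold change was −0.93 (SE 0.18, 95% interval −1.35 to −0.51, adjusted p = 0.00916 by limma). Without Ctrl 1 and cKO 3, the hearts highest in adipocyte and atrial markers, it was −0.90 with an adjusted p of 0.0760, and the call was lost. By voom on genes with at least 10 reads, without the same hearts, it was −0.999 with an adjusted p of 0.0368. The FPKM table gives 1 value per gene, so the Srebf1 start sites cannot be told apart. The gene (ENSMUSG00000020538) lies on the minus strand at chr11:60199089-60222581.

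Srebf2 encodes SREBP-2 and did not pass the test. Its levels were 4.60, 3.87 and 4.18 FPKM in Ctrl 1 to 3 and 4.01, 4.77 and 4.57 in cKO 1 to 3, and the groups overlapped. The log2 fold change was 0.06 with a 95% interval from −0.15 to 0.27 (adjusted p = 0.621 by limma). The gene (ENSMUSG00000022463) lies on the plus strand at chr15:82147181-82205379. Within each heart, the FPKM level of Srebf1 divided by that of Srebf2 was 2.50, 1.99 and 3.24 in Ctrl and 1.28, 1.04 and 1.16 in cKO, with no overlap between the groups.

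**Figure D2:**
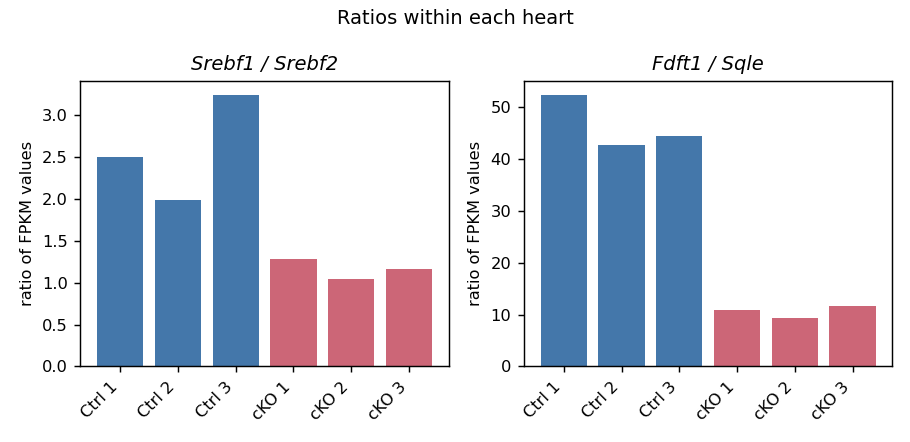
Ratios of FPKM levels within each heart, Srebf1 to Srebf2 (left) and Fdft1 to Sqle (right), with 1 bar per heart from 0. Both ratios are lower in all 3 cKO hearts than in any Ctrl heart, with means of 2.58 ± 0.630 and 1.16 ± 0.118 for the first and 46.6 ± 5.16 and 10.6 ± 1.20 for the second in Ctrl and cKO.

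Sqle, the epoxidase that acts directly after Fdft1, stood in the opposite direction. It was measured at 0.218, 0.277 and 0.268 FPKM in Ctrl 1 to 3 (23, 32 and 36 reads) and at 0.447, 0.556 and 0.523 FPKM in cKO 1 to 3 (42, 72 and 73 reads). All cKO hearts lay above all Ctrl hearts, and the ratio of the means was 2.00. With a mean of 0.382 FPKM it was below the filter and was not tested in the comparison above. Without the filter its log2 fold change was 0.27 (adjusted p = 0.0308 by limma), on a scale where the added 1 FPKM shrinks the change of so low a gene, beside 5.95% of 26855 genes called higher and 6.26% called lower. By voom on the recovered reads of 18770 genes with at least 10 reads, an alternative chosen after the data were seen, it rose by 1.02 (95% interval 0.50 to 1.55, adjusted p = 0.0115), beside 12.5% of genes called higher and 24.3% called in either direction. With any single heart left out of that fit the adjusted p was between 0.0172 and 0.0477, and without Ctrl 1 and cKO 3 it was 0.108, with a log2 fold change of 0.91. Within a heart, the level of Fdft1 was 52.5, 42.8 and 44.5 times that of Sqle in Ctrl and 10.9, 9.26 and 11.6 times in cKO. No other annotated gene shared a near-identical stretch with Sqle (ENSMUSG00000022351, chr15:59315077-59331192, plus strand). Non-overlapping groups were found for 3 of the 8 genes, Fdft1, Srebf1 and Sqle, and for 30.8% of all genes without the filter and 51.2% of those that passed it.

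Hmgcs1, at the entry of the route, did not pass the test. Its levels were 5.23, 4.89 and 5.30 FPKM in Ctrl 1 to 3 (458, 467 and 589 reads) and 4.23, 7.01 and 5.19 FPKM in cKO 1 to 3 (329, 752 and 600 reads). The cKO hearts lay on both sides of the Ctrl range, with cKO 2 the highest of all. The log2 fold change was 0.06 (95% interval −0.30 to 0.41, adjusted p = 0.803 by limma) and turned to −0.11 without cKO 2. The gene (ENSMUSG00000093930) lies on the plus strand at chr13:119690379-119708260, and 16.2% of its longest coding transcript overlaps the antisense gene Gm48342.

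Idi1 was measured at 0.688, 0.864 and 0.731 FPKM in Ctrl, against 0.674, 0.672 and 0.692 in cKO. The groups touched at their edges, and the log2 fold change was −0.07 (95% interval −0.26 to 0.12, adjusted p = 0.547 by limma). Pseudogenes and an overlapping transcript share 33.3% of the longest coding transcript of Idi1 (ENSMUSG00000058258, chr13:8885501-8892451, plus strand), so its level is uncertain. Lss, the ring-closing cyclase, stood at 0.297, 0.254 and 0.291 FPKM in Ctrl (61, 57 and 76 reads) and at 0.383, 0.306 and 0.243 FPKM in cKO (70, 77 and 66 reads), below the filter and with overlap. By voom on genes with at least 10 reads the log2 fold change of Lss (ENSMUSG00000033105, chr10:76531588-76557138, plus strand) was 0.12 (adjusted p = 0.741).

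Fdps was close to undetected in every heart. It had 3, 3 and 1 reads in Ctrl and 4, 6 and 3 in cKO, and no fold change is given at this depth. Of its longest coding transcript 91.4% had a near-identical stretch in 6 other annotated genes, most of them processed pseudogenes. One of these, Gm3571, had 161 reads over the 6 hearts, and another, Gm5873, had 38. How reads with several possible origins were treated was not given in the sources used here, and the reads of Fdps and of these copies cannot be told apart. The level of Fdps (ENSMUSG00000059743, chr3:89093588-89101959, minus strand) is therefore uncertain.

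**Figure D3:**
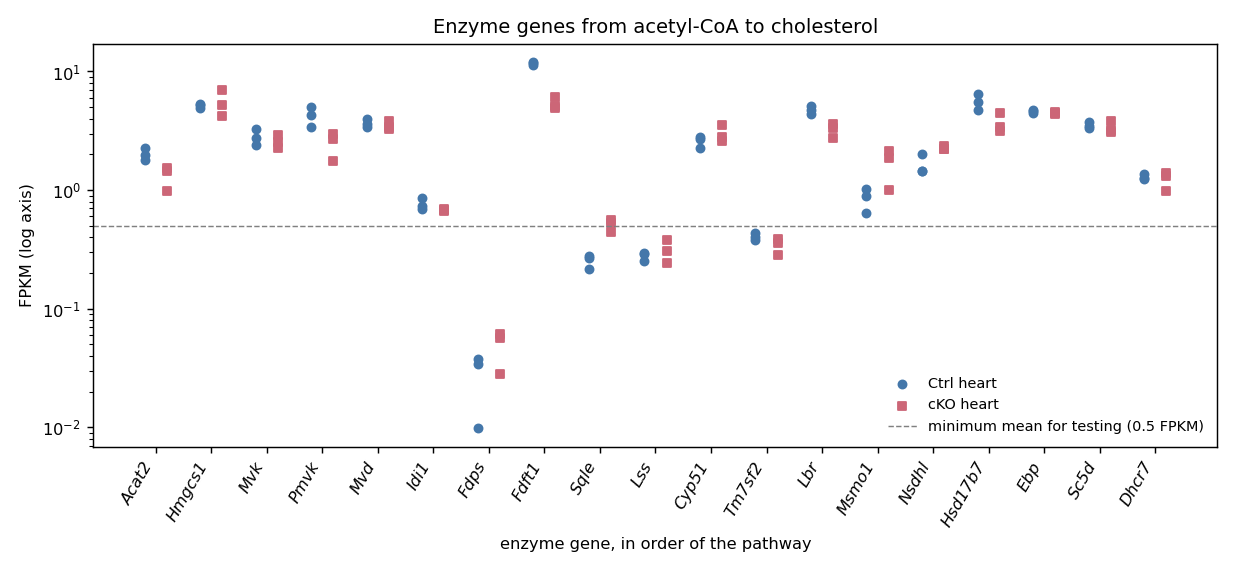
FPKM of enzyme genes from acetyl-CoA to cholesterol, 1 point per heart on a log axis, Ctrl as circles and cKO as squares, with genes in the order of the pathway and a dashed line at 0.5 FPKM, the minimum mean for testing. The 3 cKO hearts lie below the 3 Ctrl hearts in Fdft1 and above them in Sqle, and Fdps lies lowest.

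Over the rest of the route, 13 of 15 further enzyme genes were tested, of which 4 were called lower and 0 higher by limma with a median log2 fold change of −0.05 against −0.02 over all tested genes, of which 17.0% were called lower and 16.3% higher. At an unadjusted p under 0.05, 2 were higher, and voom called 1 higher. The 4 were the phosphomevalonate kinase Pmvk (−0.60, adjusted p = 0.0325), the sterol reductases Hsd17b7 (−0.51) and Lbr (−0.45), and Acat2 (−0.38, adjusted p = 0.0467), which makes acetoacetyl-CoA. Pmvk was at 5.02, 4.29 and 3.43 FPKM in Ctrl, against 1.76, 2.68 and 2.97 in cKO. Its call was lost in 6 of 16 alternatives, among them those without Ctrl 1 (adjusted p = 0.0959), Ctrl 2 (0.0909) or cKO 1 (0.0676). The sterol methyl oxidase Msmo1 was at 0.640, 0.892 and 1.03 FPKM in Ctrl, against 1.86, 2.14 and 1.01 in cKO. Its log2 fold change of 0.51 missed the threshold (adjusted p = 0.0674) and passed it without cKO 3 (0.70, adjusted p = 0.0130). Nsdhl, another enzyme of the route, was at 2.02, 1.45 and 1.45 FPKM in Ctrl, against 2.22, 2.37 and 2.22 in cKO, without overlap. Its log2 fold change of 0.31 also missed the threshold (adjusted p = 0.0538 by limma). Cyp51, Mvd and Dhcr7 were not called, and Idi2 and Tm7sf2 were below the filter.

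Among genes that carry, hold and cut the SREBP precursors, the shares called were close to those over all tested genes (16.3% higher, 17.0% lower). Of 11 tested, 3 were called higher (Erlin1, Scap and Faf2) and 2 lower (Insig1 and Fbxw7), with a median of 0.09. Insig1, which retains the SCAP complex in the endoplasmic reticulum and is itself an SREBP target, was at 7.63, 8.02 and 8.47 FPKM in Ctrl, against 4.68, 3.46 and 4.90 in cKO. All cKO hearts lay below all Ctrl hearts, and the log2 fold change was −0.77 (adjusted p = 0.00417). Insig2 was at 18.0 ± 0.652 FPKM in Ctrl and 18.4 ± 1.03 in cKO (log2 fold change 0.03, adjusted p = 0.768). Erlin1, a protein of endoplasmic reticulum membranes, was at 2.03, 1.72 and 1.80 FPKM in Ctrl, against 2.27, 3.13 and 2.67 in cKO (0.37, adjusted p = 0.0341). Its call was lost in 8 of 16 alternatives, with a highest adjusted p of 0.123. Among them were those without Ctrl 1 (adjusted p = 0.0557), Ctrl 2 (0.106), Ctrl 3 (0.0942), cKO 2 (0.0690) or cKO 3 (0.0812). Scap was at 4.38, 4.11 and 4.29 FPKM in Ctrl, against 5.92, 5.25 and 5.50 in cKO (0.32, adjusted p = 0.0162). Its call was lost in 3 of 16 alternatives, among them those without Ctrl 2 (adjusted p = 0.0619) and Ctrl 3 (0.0504). The highest adjusted p was 0.105.

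Genes that respond to SREBP-1 in fatty acid synthesis were tested in 15 of 17 cases, with 5 called lower, 0 called higher and a median of −0.12, beside 17.0% called lower and 16.3% higher over all tested genes. At an unadjusted p under 0.05, 1 was higher, and voom called 1 higher. The 5 were Lpin1, Thrsp, Acacb, Gpam and Insig1, which also stands in the list above. Lpin1, a phosphatidate phosphatase, fell from 26.2 ± 7.01 to 11.7 ± 2.10 FPKM (−1.08, adjusted p = 0.00801). Acacb, the acetyl-CoA carboxylase that limits mitochondrial fatty acid uptake, had a log2 fold change of −0.79, and Gpam, which begins glycerolipid synthesis, one of −0.64. Fasn (3.49 ± 0.370 FPKM in Ctrl, 3.87 ± 1.02 in cKO), Scd1, Scd2 and Acaca were not called. Acaca was higher in every cKO heart than in any Ctrl heart (0.839 to 1.04 FPKM in Ctrl, 1.19 to 1.57 in cKO). Its log2 fold change was 0.27 (adjusted p = 0.0623 by limma). Scd2 was lower in every cKO heart (−0.16, adjusted p = 0.181 by limma). Scd1, the stearoyl-CoA desaturase, was at 7.87, 4.63 and 5.90 FPKM in Ctrl, against 6.45, 4.84 and 13.5 in cKO, and the highest heart of each group was also the one highest in adipocyte markers.

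Among genes of the liver X receptors (LXR), which induce Srebf1 when oxysterols bind, and of sterol efflux, 2 of 7 tested were called lower and 1 higher (17.0% and 16.3% over all tested genes), with a median of −0.22. The efflux transporter Abca1 was at 7.22, 5.39 and 10.3 FPKM in Ctrl, against 3.00, 2.23 and 2.85 in cKO (−1.19, adjusted p = 0.00622). Without Ctrl 1 and cKO 3 its adjusted p was 0.0526. Abcg1 was the other gene called lower (−0.37). The cholesterol hydroxylase Ch25h rose from 0.725 ± 0.237 to 2.00 ± 0.385 FPKM (0.80, adjusted p = 0.00599). The receptor gene Nr1h3 was not called (−0.22, adjusted p = 0.576).

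Of 13 tested genes of sterol uptake, storage and transport, 3 were called lower and 0 higher (17.0% and 16.3% over all tested genes), with a median of −0.20. At an unadjusted p under 0.05, 1 was higher, and voom called 0 higher. Mylip, a ubiquitin ligase induced by LXR, was at 16.6, 14.4 and 19.4 FPKM in Ctrl, against 11.1, 6.09 and 8.64 in cKO (−0.92, adjusted p = 0.0140). Its call was lost in 2 of 16 alternatives, among them the one without Ctrl 3 (adjusted p = 0.0506), and the highest adjusted p was 0.0919. The other 2 were Npc1 (−0.64) and Osbp (−0.33). Npc2 had a log2 fold change of 0.20 (adjusted p = 0.0824).

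Farnesyl diphosphate that is not taken by Fdft1 serves ubiquinone, dolichol and protein prenylation, and of 13 tested genes of these uses 3 were called higher and 2 lower (16.3% and 17.0% over all tested genes), with a median of 0.09. The ubiquinone prenyltransferase Coq2 was at 41.9, 43.6 and 43.3 FPKM in Ctrl, against 27.3, 24.6 and 31.3 in cKO (−0.62, adjusted p = 0.00449), and Pdss2, a subunit of the enzyme that makes the ubiquinone side chain, was also lower (−0.30). Pdss1, the other subunit, was at 2.51, 2.76 and 2.48 FPKM in Ctrl, against 3.87, 4.61 and 3.30 in cKO (0.45, adjusted p = 0.0196). That call was lost in 4 of 16 alternatives, among them those without Ctrl 1 (adjusted p = 0.0611) or Ctrl 3 (0.0646). Rce1, which trims prenylated proteins, and Nus1, a subunit of dolichol synthesis, were the other 2 called higher.

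All lists together, each gene counted once, held 71 tested genes, of which 7 were called higher and 17 lower, beside 16.3% and 17.0% over all tested genes. With 1 heart left out, 1 (without Ctrl 3) to 6 were called higher and 10 (without Ctrl 2 or Ctrl 3) to 15 lower. The split was 14 higher to 13 lower when libraries were scaled without the genes encoded by mitochondrial DNA. Under that scaling 2649 of all 12945 tested genes were called higher and 1620 lower, against 2110 and 2205 in the main fit. With median-of-ratios scaling the split was 8 higher to 15 lower, and by voom 10 to 17. Fdft1, Srebf1, Insig1 and Abca1 fell in the main fit and under scaling without mitochondrial DNA genes.

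**Figure D4:**
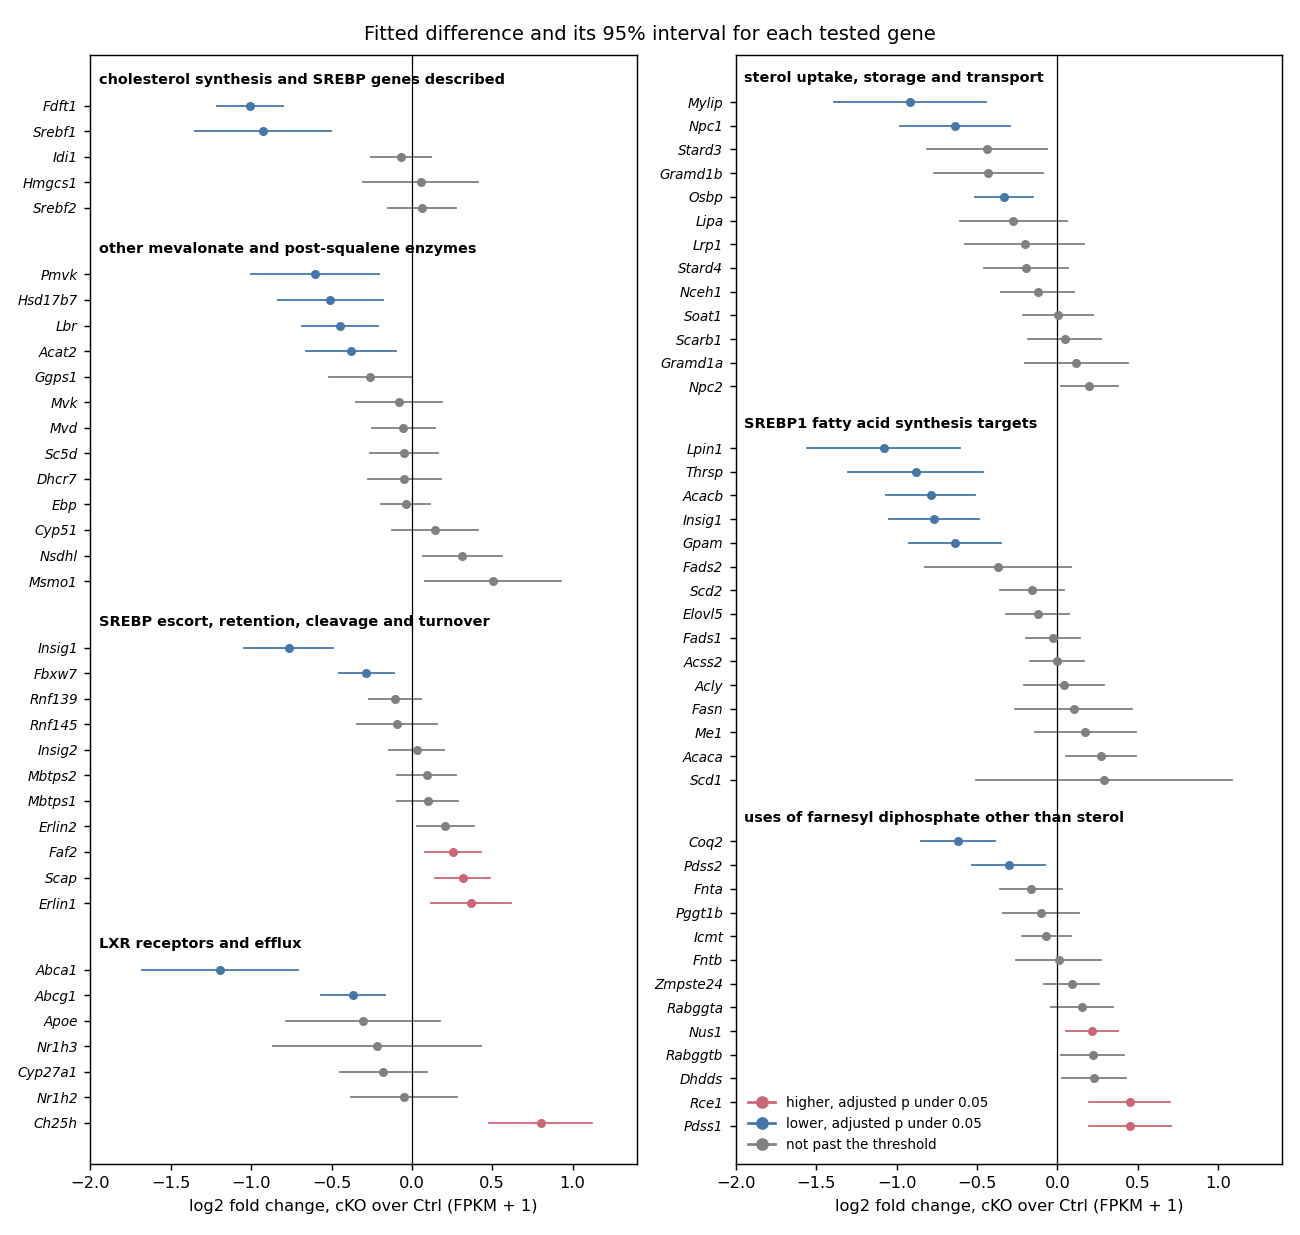
Log2 fold change, cKO over Ctrl, on the log2(FPKM + 1) scale for the tested genes of each list, with points for the fitted value and lines for the 95% interval, red for called higher, blue for called lower and grey for not called. Fdft1 and Srebf1 have intervals from −1.21 to −0.80 and from −1.35 to −0.51, and the intervals of Hmgcs1, Idi1 and Srebf2 include 0.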

How the data were processed

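RNA from 3 Ctrl and 3 cKO mouse hearts was compared, grouped by sample title. The authors aligned reads with HISAT2 2.0.5, counted them per gene with featureCounts 1.5.0-p3 and deposited FPKM values, with gene length as a further value (versions from the submitters' processing notes). Those notes list mm9, but all 8 genes have the coordinates of GENCODE release 21 (GRCm38), which are printed here.

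FPKM values were tested with limma 3.58.1 in R 4.3.3 (eBayes with trend, two-sided) on log2(FPKM + 1), without covariates, for genes whose mean reached 0.5 FPKM, with Benjamini-Hochberg adjustment over all tested genes and a threshold of 0.05. FPKM is not a count, so the authors' DESeq2 was not used. FPKM times length and a scale per heart, fitted to the steps between low values, gave whole reads, which were tested by voom as an alternative. The library size this implies was 0.913 to 0.980 of the recovered total in Ctrl and 1.06 of it in each cKO heart, so the other scalings bear on small differences. The code was tested on simulated data. Depth was 15989322 to 24875499 reads per heart. All libraries differed by more than sampling noise. Hearts were separate samples, and the labels do not say more of their origin. Near-identical sequence was searched with blastn 2.17.0 against GENCODE transcripts.

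The genes and lists were chosen with earlier results of these data known. Named were the 8 genes, set anchor genes of the pathway, the tested gene of each list that rose and fell most, and Mrps5. The remaining called genes of each list, Acaca and Nsdhl were named after their values were seen. Some genes of the lists are not reported here and were left out of the list counts after those had first been computed. Alternatives were another pseudocount, other filters, other scalings, eBayes without trend, voom, a replicate block and leaving out each heart.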

Additional observations from a re-analysis of the deposited data

How the results depend on the processing

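Over the named genes and all alternatives, 429 values kept direction and side of the threshold, 25 lost the call, 12 gained it and 11 changed sign, all of the last among genes that were not called. In these counts Fdps, Sqle and Lss, not tested in the main fit, stand as not called there. Of the 12 gains 8 are of Sqle. With 1 heart left out, the range crossed 0 for Hmgcs1 (−0.11 without cKO replicate 2 to 0.20), Insig2 (−0.012 without cKO replicate 1 to 0.059), Nr1h3 (−0.41 to 0.079 without cKO replicate 2), Dhcr7 (−0.10 to 0.036 without cKO replicate 3), Fasn (−0.055 without cKO replicate 3 to 0.24) and Scd1 (−0.089 without cKO replicate 3 to 0.57). By voom on genes with at least 10 reads Hmgcs1 was −0.084 without cKO replicate 2 and Lss −0.020 without cKO replicate 1. Scaling without genes of mitochondrial DNA gave 0.017 for Mvd and 0.0033 for Dhcr7. Without Ctrl 1 and cKO 3, left out together after the data were seen, Dhcr7 was 0.025. The causes were not tested.

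The 2110 higher and 2205 lower calls over all genes ranged from 1396 to 1977 and from 1423 to 2011 with 1 heart left out, and were 995 and 1019 without Ctrl 1 and cKO 3. The count of the 8 genes called higher was 1, Sqle, without the filter and by voom on genes with at least 10 reads, where it stayed 1 with any heart left out. The count called lower was 1 without Ctrl 1 and cKO 3. Of the other pathway genes, 7 were called higher, against 2 without the filter, 14 under scaling without mitochondrial DNA genes, 4 with the replicate block, 1 to 6 with 1 heart left out and 2 without Ctrl 1 and cKO 3. The calls over all genes moved with these settings too. Those higher were 1598 of 26855 without the filter, 2649 of 12945 under that scaling and 1874 of 12944 with the block. The count of other pathway genes called lower was 10 to 15 with 1 heart left out and 6 without Ctrl 1 and cKO 3. Npc2 gained a call under scaling without mitochondrial DNA genes (0.28, adjusted p = 0.0423).

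The replicate numbers did not pair the hearts, with correlations of deviations of −0.06, 0.17 and −0.01. With the replicate block 1874 genes were called higher and 1982 lower, and of the 26 calls among the 8 genes and the lists it ended 6, those of Pmvk (adjusted p = 0.0696), Erlin1 (0.0694), Acat2 (0.0593), Faf2 (0.0644), Pdss2 (0.0694) and Nus1 (0.102). Depth limits Fdps, with at most 6 reads in a heart, and Lss and Sqle, with 23 to 77.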

Other observations

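The mean profile of the 6 enzyme genes, each standardised over the 6 hearts on the log2(FPKM + 1) scale, was highest in cKO 2 (0.458) and lowest in cKO 3 (−0.282), with the Ctrl hearts between them at −0.129, 0.117 and −0.198. Pearson correlations between these 6 genes ran from −0.93 (Fdft1 and Sqle) to 0.64 (Idi1 and Fdft1). The mean therefore does not stand for a shared pattern, and Fdps, with 1 to 6 reads per heart, weighs in it as much as the others. Among protein-coding genes whose mean reached 1 FPKM, the 5 most like the mean profile were Arvcf (r = 0.990), Cnksr1 (0.986), Pfdn1 (0.971), Pitpnm2 (0.969) and Hspb6 (0.966). These are Pearson correlations over the same 6 libraries, picked as the highest of all genes, and are given as a description. Hspb6, the small heat shock protein of muscle, stood at 424, 457 and 370 FPKM in Ctrl, against 418, 539 and 367 in cKO.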
